A study of Homo sapiens with 4 samples.

Results

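The circular RNAs that back-splice within genes of the DNAJ family were examined in a radiation-resistant human breast cancer line with and without knockdown of HNRNPL. A circle was counted as a member when it was not antisense and at least 1 of the genes it named had a symbol made of DNAJA, DNAJB or DNAJC followed by digits. This took 509 of 211599 deposited positions. Of these, 458 had a count in at least 1 library, of 190152 circles with a count in the whole data set. They belonged to 28 host genes, of 14794 host genes with a count. Another 22 positions carried longer symbols, such as a pseudogene or a readthrough of a DNAJ gene, and were left out.

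DNAJ proteins carry a J domain, with which they stimulate the ATPase of HSP70 chaperones and hand them unfolded clients. Classes A and B resemble the bacterial DnaJ protein most, and class C shares only the J domain and places HSP70 at many sites, among them the lumen of the endoplasmic reticulum (ER), endosomes, ribosomes and chromatin. A circular RNA forms when a downstream splice donor joins an upstream acceptor of the same transcript, so that a set of exons closes on itself. HNRNPL is an RNA-binding protein that binds CA-rich sequence and regulates splicing.

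All libraries came from MDA-MB-468, an established line of basal-like breast cancer, in a radioresistant derivative that had received fractionated radiation to a total of 50 Gy. The controls (2 replicates) carried the shCtrl hairpin and have the genotype label WT. The knockdowns (2 replicates) stably carried a hairpin against HNRNPL, of which the extraction label names a single one, shHNRNPL-1. Control and knockdown cells thus shared the line and the radiation history. A non-irradiated parental group was not analysed here. The replicates are biological per the series description, and nothing states whether the numbers mark shared cultures. No position examined here named HNRNPL, so the knockdown rests on the labels.

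Total RNA was copied with random primers by Induro, a reverse transcriptase that can travel around a circle many times, amplified, and read on a nanopore sequencer. The libraries held 282737 to 556578 circular counts. A count of 0 in 1 library allows a level of up to 0.539 to 1.06 per 100000 circular counts (3 counts), which covers counting error only, since amplified copies carry no molecular identifiers. Control replicate 1 stood apart: 70.9% of all its counts lay in exon circles, against 84.9% to 85.7% in the other libraries. The part of that difference in the results below was not tested, and each result is therefore given by library.

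The DNAJ circles held 661 and 870 counts in control replicates 1 and 2 and 446 and 633 counts in knockdown replicates 1 and 2. That is 0.140% and 0.156% of the circular counts in the controls against 0.158% and 0.162% in the knockdowns. Both knockdown libraries were thus above both controls, by little. The group means were 0.148% ± 0.0116 and 0.160% ± 0.00307 (SD, n = 2), a difference of 0.0118 percentage points. Levels of this kind are relative to all circular counts of a library, so that fewer copies per cell and fewer contributing cells cannot be told apart.

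Exon circles made up 338 of the 458 members and 2228 of their 2610 counts, and intron circles the other 120 and 382 counts. The exon share of DNAJ counts was 72.8% in control replicate 1 and 91.4% in control replicate 2, and 88.6% and 88.0% in the knockdowns. The knockdown libraries thus lay between the controls. The median DNAJ circle was 1377.5 nt long, against 1349 nt over all circles, with a range from 295 to 7030 nt. Exon circles of the family contained a median of 7 exons, against 6 over all exon circles, and 45 at most. The AG-GT motif of ordinary splice sites flanked 88.4% of the DNAJ circles, against 85.1% of all circles. Most DNAJ circles were rare: 277 (60.5%) were seen in a single library, against 58.3% of all circles, and 35 (7.64%) in all 4, against 8.97%. The 417 circles with fewer than 10 counts held 46.9% of the DNAJ counts.

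At equal depth, with every library thinned to 282737 counts, 179.4 and 146.0 DNAJ circles were detected in the controls against 147.0 and 157.3 in the knockdowns. Control replicate 1 held the most and the other libraries were close to each other. The count-weighted median length of DNAJ circles was 1468 and 996 nt in the controls and 959 and 882 nt in the knockdowns. Both knockdown values were below both controls, and the gap to control replicate 2 was small. Over all circles the same measure was 1363 and 1255 nt in the controls and 1381 and 1279 nt in the knockdowns, and the groups overlapped.

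Of 43 DNAJ symbols in the RefSeq gene table of GRCh38.p14, 28 had a counted circle and 15 had none. The genes with circles had a median genomic span of 39838 nt, and those without had 6130 nt. Across the 43 genes, span and circular counts had a Spearman correlation of 0.708, as a description only, since a longer gene has more exons and more sites that could be called in the same libraries. DNAJC16 (745 counts), DNAJC13 (506) and DNAJC3 (441) held 64.8% of the DNAJ counts. At least 40 counts were found for 10 hosts, 7 hosts had 10 to 39 counts, and 11 had fewer than 10 and were not tested.

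**Figure D1:**
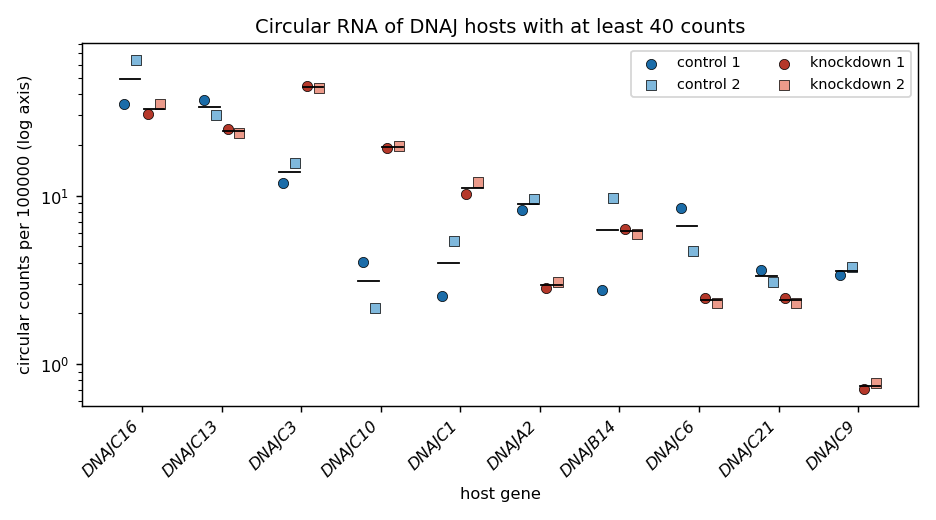
Level of circular RNA of the 10 DNAJ hosts with at least 40 counts, as counts per 100000 circular counts of the library on a log axis. Points are the 4 libraries and short lines the group means (n = 2). DNAJC10, DNAJC3 and DNAJC1 have both knockdown points above both control points. DNAJC16, DNAJC13, DNAJA2, DNAJC6, DNAJC21 and DNAJC9 have them below, and the groups overlap in DNAJB14. Of all hosts with at least 40 counts, 19.0% have them above and 39.8% below.

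Counts per host were compared with edgeR's quasi-likelihood test, with TMM scaling and Benjamini-Hochberg adjustment over all 8379 hosts with at least 10 counts. Of the 17 tested DNAJ hosts, 1 rose at an adjusted p under 0.05 and 0 fell. Over all hosts tested, 0.442% rose and 0.0% fell. At an unadjusted p under 0.05, 4 DNAJ hosts were higher and 2 lower, against 7.58% and 6.17% of all hosts. The knockdown libraries lay above both controls for 5 DNAJ hosts (15.3% of all hosts) and below both for 9 (36.7% of all hosts), and the groups overlapped for 3. The median log2 fold change of the DNAJ hosts was -0.16, against -0.26 over all hosts tested. Scaling by library size alone moved the median over all hosts to -0.60, and 16 of the 17 DNAJ hosts kept their sign under it. The exception was DNAJB14, at 0.21 with TMM and -0.030 with library size.

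**Figure D2:**
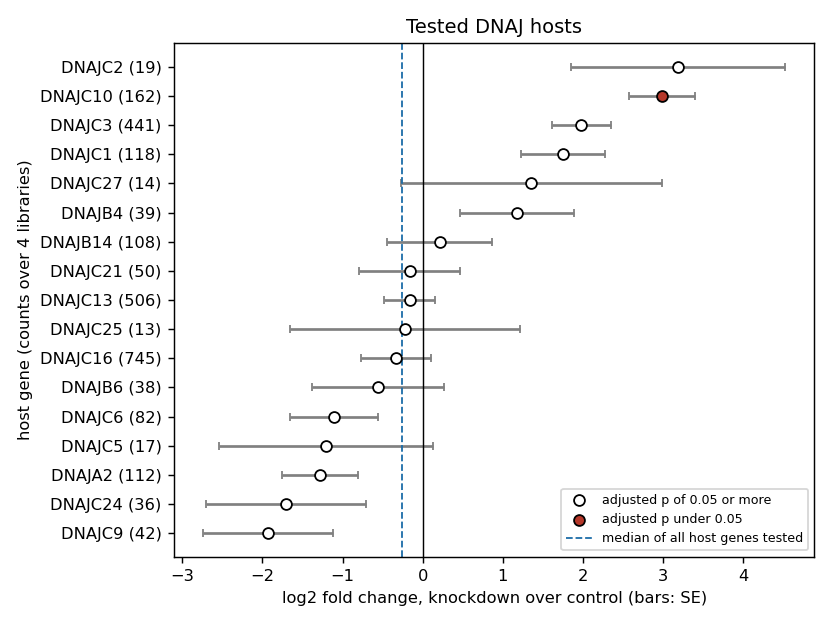
Log2 fold change of circular RNA, knockdown over control, for the 17 tested DNAJ hosts, with bars of 1 SE from edgeR and the counts over 4 libraries in brackets. The filled point, DNAJC10 at 2.99, is the host with an adjusted p under 0.05, and the dashed line is the median of all tested hosts at -0.26.

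The host that rose was DNAJC10, which encodes ERdj5, an ER disulfide reductase that works with the HSP70 protein BiP and helps to unfold proteins for degradation. Its circles had 19 and 12 counts in the controls and 54 and 77 counts in the knockdowns, although the knockdown libraries were smaller. Per 100000 circular counts this was 4.02 and 2.16 in the controls against 19.1 and 19.7 in the knockdowns, and the groups did not overlap. The means were 3.09 ± 1.32 and 19.4 ± 0.436 (SD, n = 2), a ratio of 6.28. On the log2 scale the fold change was 2.99 ± 0.41 (SE; adjusted p = 0.0386 by edgeR), and DNAJC10 ranked 15th by p among the tested hosts. The call was lost with library-size scaling (adjusted p = 0.0539 by edgeR), with edgeR's newer dispersion method (0.0869) and without the most counted circle (0.0563). These settings called 0.692%, 0.0% and 0.43% of all hosts. The log2 fold change was 3.04 without knockdown replicate 1 and 2.93 without knockdown replicate 2. Without control replicate 1 it was 3.32, and without control replicate 2 it was 2.83. The log2 fold change stayed between 2.60 and 3.48 over all these and the other alternatives.

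DNAJC10 lies on the plus strand at chr2:182716257-182794464 (GRCh38.p14, RefSeq). It gave 48 circles, of which 41 were of exon type. Exon circles had 7 and 12 counts in the controls and 50 and 72 counts in the knockdowns, and both knockdown libraries were far above both controls. Of the 48 circles, 31 were seen in knockdown libraries only, with 84 counts, 11 in control libraries only and 6 in both groups. The number of exon circles was 7 and 8 in the controls against 24 and 28 in the knockdowns. Most of these circles were rare, and 26 of the 48 had 1 or 2 counts. A host with more counts in the knockdowns has more of its rare circles seen there only. The split by group is therefore no separate result, and the same split over all circles is not given here.

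The most counted DNAJC10 circle was chr2:182751658-182762801. It joined 8 exons of 54 to 156 nt into a circle of 959 nt, across 11144 nt of the gene. It had 1 count in each control library and 17 and 20 counts in the knockdowns, so that the groups were far apart. Pooled over libraries and scaled by depth, the ratio was 28.3, with a 95% interval of 7.29 to 242 from counting error alone. The log2 fold change was 4.61 ± 0.68 (SE), and the adjusted p over all 21576 circles tested was 0.0862 by edgeR, above the threshold of 0.05. The circle passed in 5 of 8 alternative settings that kept all 4 libraries, which called 0.0% to 12.0% of all circles. This circle took 5.26% and 8.33% of the DNAJC10 counts in the controls against 31.5% and 26.0% in the knockdowns. The remaining DNAJC10 circles had 18 and 11 counts in the controls and 37 and 57 counts in the knockdowns. They too were higher per 100000 in both knockdown libraries, with a log2 fold change of 2.60 ± 0.44 (SE). The donor at position 182762801, which ends this circle, was used by 7 circles with 1 and 2 counts in the controls against 20 and 32 in the knockdowns. The next most counted DNAJC10 circle had 7 counts over all libraries.

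DNAJC10 and DNAJC3, the hosts with the smallest p-values of the family, both encode BiP partners, and their promoters are shown for that reason alone. Both genes are textbook targets of the unfolded protein response, as are HSPA5, which encodes BiP, HSP90B1, the HSP90 of the ER, EDEM1 and ERO1A. These other 4 are picked examples and not all targets of that response. Their circles differed in direction, and none of the 4 hosts passed an adjusted p of 0.05 by edgeR. HSPA5 had 13 and 2 counts in the controls against 1 and 1 in the knockdowns, with a log2 fold change of -1.87 ± 1.56 (SE). It was -0.14 ± 0.39 (SE) for HSP90B1, -1.58 ± 0.52 (SE) for EDEM1 and 2.25 ± 0.54 (SE) for ERO1A. The unfolded protein response was not measured here, and its part in these circular counts was not tested. The 250 bases before each RefSeq start (GRCh38.p14, both on the plus strand) are chr2:182716007-182716256 for DNAJC10 and chr13:95676889-95677138 for DNAJC3, with a match to the unfolded protein response element in capitals.
DNAJC10: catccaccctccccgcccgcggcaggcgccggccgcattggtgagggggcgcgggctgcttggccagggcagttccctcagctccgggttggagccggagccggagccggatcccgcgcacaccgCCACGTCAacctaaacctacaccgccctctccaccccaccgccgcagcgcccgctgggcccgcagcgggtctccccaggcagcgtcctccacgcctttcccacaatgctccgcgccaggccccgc
DNAJC3: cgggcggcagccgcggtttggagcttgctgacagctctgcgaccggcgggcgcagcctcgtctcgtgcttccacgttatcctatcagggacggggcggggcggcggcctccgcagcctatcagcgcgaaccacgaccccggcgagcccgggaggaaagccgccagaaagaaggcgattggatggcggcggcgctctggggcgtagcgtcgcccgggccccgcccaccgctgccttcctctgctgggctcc

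Searched on both strands were TGACGTGG for the unfolded protein response element, CCAAT and CCACG with 9 bases of any kind between them for the ER stress element, and GAA, TTC and GAA with 2 bases of any kind between each for the heat shock element. The DNAJC10 window held CCACGTCA, the reverse complement of TGACGTGG, with its first base 125 bases before the start. This element was in 0.612% of 35116 RefSeq promoter windows and, of the 39 DNAJ genes with a window, in DNAJC10. The ER stress element was in 0.0740% of all windows and in 0 of the 39 DNAJ genes. The heat shock element was in 0.441% of all windows and in 1 DNAJ gene, DNAJB6. The DNAJC3 window held none of these letters. A match describes the sequence and was not tested as a binding site.

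DNAJC3 encodes p58IPK, a BiP co-chaperone in the ER lumen that is also known as an inhibitor of the kinases PERK and PKR. Its circles had 56 and 87 counts in the controls and 127 and 171 counts in the knockdowns. That is 11.9 and 15.6 per 100000 in the controls against 44.9 and 43.8 in the knockdowns, and the groups did not overlap. The ratio of the means was 3.23 and the log2 fold change 1.98 ± 0.37 (SE), with an adjusted p of 0.0654 by edgeR. DNAJC3 thus missed the threshold here. It passed in 9 of 12 alternative settings that kept all 4 libraries, exon circles only among them (adjusted p = 0.0354 by edgeR), and the adjusted p ran from 0.000387 to 0.880 over all such settings.

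The most counted DNAJC3 circle was chr13:95757644-95763953, which lies on the plus strand within the gene span chr13:95677139-95794988. Its 5 exons of 106 to 182 nt gave a length of 682 nt, from 6310 nt of the gene. It had 7 and 32 counts in the controls and 108 and 126 counts in the knockdowns, and the controls themselves differed by a wide margin. Per 100000 this was 1.48 and 5.75 in the controls against 38.2 and 32.3 in the knockdowns. The log2 fold change was 3.29 ± 0.54 (SE; adjusted p = 0.0911 by edgeR) over all circles tested. The circle passed in 7 of 9 alternative settings that kept all 4 libraries, which called 0.0% to 12.5% of all circles. The pooled ratio of 9.17 had a 95% interval of 6.51 to 13.2 from counting error alone. This circle held 12.5% and 36.8% of the DNAJC3 counts in the controls against 85.0% and 73.7% in the knockdowns.

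All other DNAJC3 circles together had 49 and 55 counts in the controls against 19 and 45 in the knockdowns. Per 100000 these overlapped between the groups. Without the leading circle the log2 fold change of DNAJC3 was 0.18 ± 0.42 (SE), with an adjusted p of 0.880 by edgeR. The acceptor at 95757644 was shared with a longer circle that ran on to position 95791376 over 8 exons and 1468 nt. That circle had 5 and 16 counts in the controls against 4 and 6 in the knockdowns, and its groups overlapped. Of the 38 DNAJC3 circles, 4 rarer ones with 2 to 7 counts each were higher per 100000 in both knockdown libraries than in either control. Having fewer than 10 counts, they were not tested. Of all circles tested, which had at least 10 counts, 23.2% were higher in this way. The share over circles as rare as these 4 is not given here. Whether circles of a host changed unequally was tested with edgeR's F test on circle use. The adjusted p of DNAJC3 was 0.127 over 2335 genes by edgeR. DNAJC10 could not enter, having a single circle with at least 10 counts, so that the make-up of the counts of DNAJC10 and DNAJC3 was not compared by a test.

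**Figure D3:**
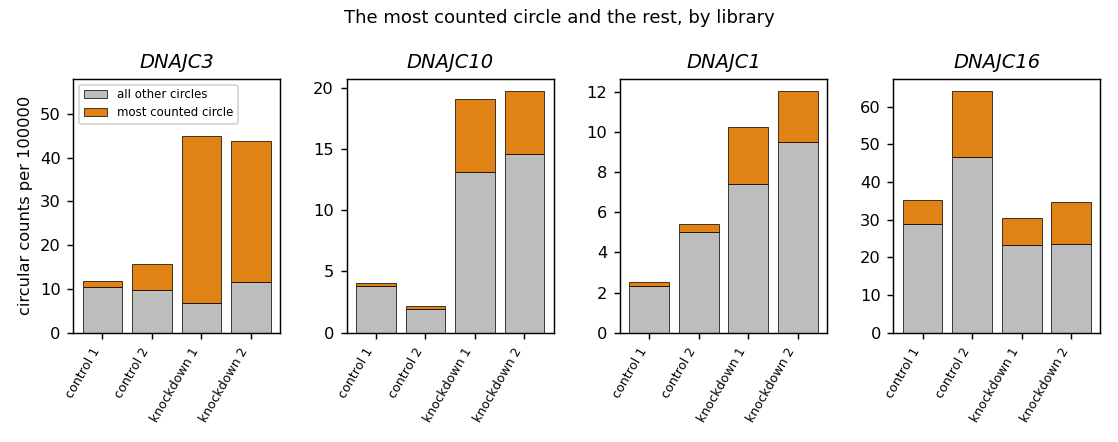
Counts per 100000 circular counts of the library for 4 DNAJ hosts, with the most counted circle of each host in orange stacked on all its other circles in grey. In DNAJC3 the orange part is 12.5% and 36.8% of the bar in the controls against 85.0% and 73.7% in the knockdowns, and in DNAJC10 both parts are larger in the knockdowns; each panel has its own axis.

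DNAJC1 encodes an ER membrane J protein that binds BiP in the lumen and contacts ribosomes. Its circles had 12 and 30 counts in the controls and 29 and 47 counts in the knockdowns, or 2.54 and 5.39 against 10.3 and 12.0 per 100000. The groups did not overlap, with a log2 fold change of 1.75 ± 0.52 (SE; adjusted p = 0.215 by edgeR). The most counted DNAJC1 circle, chr10:21882282-21920963 on the minus strand, had 5 exons and 607 nt. It had 1 and 2 counts in the controls against 8 and 10 in the knockdowns, with a log2 fold change of 3.08 ± 0.82 (SE; adjusted p = 0.187 by edgeR). In DNAJC1, 51 of 118 counts lay in intron circles, and its exon circles alone had 4, 9, 21 and 33 counts in the same library order. The exon circles of DNAJC1 back-spliced from 2 acceptors, at 21920963 (41 counts) and 21929141 (26 counts).

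DNAJC16, an ER membrane protein with thioredoxin-like domains, was the host with the most counts in the family. It had 166 and 357 counts in the controls against 86 and 136 in the knockdowns, or 35.1 and 64.1 against 30.4 and 34.8 per 100000. Both knockdown libraries were below both controls, but knockdown replicate 2 and control replicate 1 were almost level. The log2 fold change was -0.33 ± 0.43 (SE; adjusted p = 0.765 by edgeR), and it turned to 0.47 without control replicate 2. All 31 DNAJC16 circles were of exon type, and 15 were seen in all 4 libraries. Of its circles, 24 also named SCARNA21B, a small Cajal body RNA gene inside DNAJC16, and these held 553 of the 745 counts. The circles that named DNAJC16 alone had a log2 fold change of -1.34 ± 0.58 (SE; adjusted p = 0.318 by edgeR). Those of them with at least 10 counts were 3 circles with 180 counts, all ending at the donor at 15536814. This value thus mostly describes that donor, given below, and is no separate estimate for the whole gene.

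A few splice sites of DNAJC16 (plus strand, chr1:15526848-15571733) accounted for most of its circles. The acceptors at 15534237, 15529088 and 15536475 gave 347, 258 and 128 counts, and the donors at 15548428 and 15536814 gave 275 and 180 counts. The leading circle, chr1:15534237-15548428 with 5 exons and 856 nt, had 30 and 98 counts in the controls against 20 and 44 in the knockdowns. Its level overlapped between the groups, with a log2 fold change of -0.33 ± 0.51 (SE). The circle chr1:15529088-15548428, longer by 1 exon at the upstream end, had 21 and 28 counts in the controls against 14 and 15 in the knockdowns and also overlapped.

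The exon at chr1:15536475-15536814 also closed on itself, as a circle of 340 nt. It had 16 and 63 counts in the controls against 4 and 7 in the knockdowns, or 3.39 and 11.3 against 1.41 and 1.79 per 100000. The knockdowns were lower than both controls, with a log2 fold change of -2.12 ± 0.64 (SE; adjusted p = 0.232 by edgeR). The donor of this exon, 15536814, gave 34 and 114 counts in the controls against 8 and 24 in the knockdowns. That is 20.5% and 31.9% of the DNAJC16 exon counts in the controls against 9.30% and 17.6% in the knockdowns, and the shares did not overlap. The leading donor, 15548428, gave 30.7% and 35.6% in the controls against 41.9% and 44.9% in the knockdowns, which did not overlap either. Nor did the shares of the next most used donors overlap. Those at 15562325, 15546871 and 15559656 were higher in both knockdowns, and that at 15567269 was lower. Shares of 1 host add up to the whole, so that a lower share of one donor raises those of the others. How often donor shares of other hosts separate in this way was not computed. These separations are thus not shown to be particular to DNAJC16. The circle chr1:15534237-15536814, with the same donor and 2 exons, had 12 and 27 counts in the controls against 3 and 13 in the knockdowns, and its levels overlapped. Of 17 tested DNAJC16 circles, 12 had a negative and 5 a positive log2 fold change. The median over all circles tested was -0.39, so that most of all circles were negative too. In the test of circle use DNAJC16 entered with 3 circles and had an adjusted p of 0.679 by edgeR. These 3 circles all ended at donor 15536814, so that this test could not compare the donors. With every gene that a circle names, an alternative chosen after seeing the data, all 17 entered and the adjusted p was 0.135 by edgeR.

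**Figure D4:**
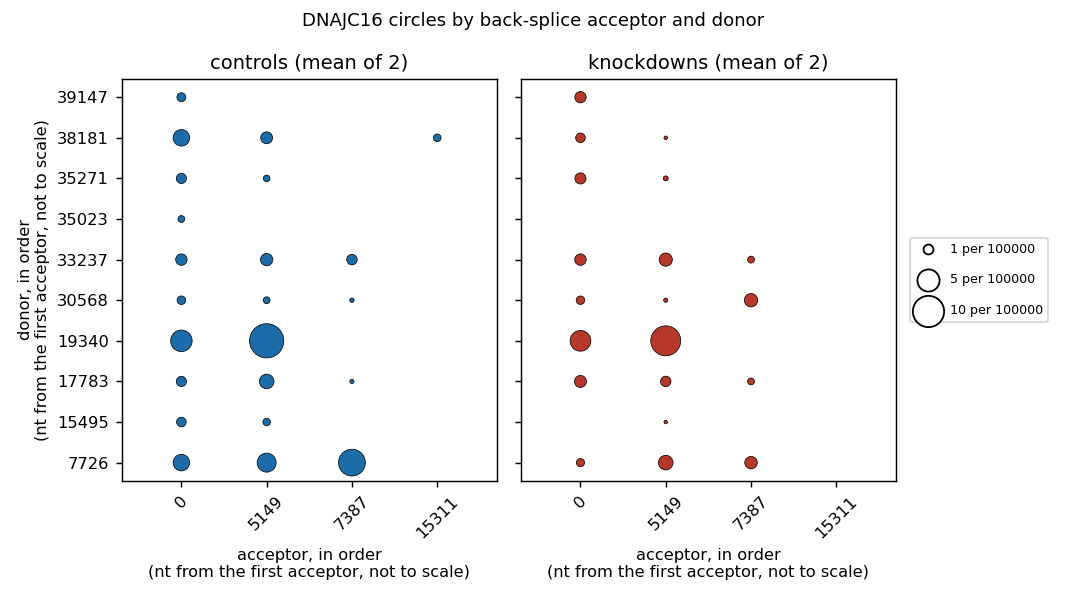
The 23 DNAJC16 circles with at least 5 counts, placed by acceptor and donor in the order along the gene, with labels in nt from the first acceptor; the area of a circle is the group mean in counts per 100000 circular counts. The pair of acceptor 5149 and donor 19340 is the largest in both groups, and the points in the row of donor 7726 are smaller in the knockdowns than in the controls.

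DNAJB14, a J protein of the ER membrane that takes part in ER-associated degradation, had 13 and 54 counts in the controls against 18 and 23 in the knockdowns. The controls differed more from each other than from the knockdowns, and the log2 fold change was 0.21 ± 0.65 (SE). Its leading circle, chr4:99900982-99930621 on the minus strand with 7 exons and 1053 nt, had 4 and 14 counts in the controls against 2 and 9 in the knockdowns, and its levels overlapped. Of the list of ER J proteins, which was chosen with results of these data known, 7 hosts were tested. DNAJC10 rose and 0 fell by edgeR, and at an unadjusted p under 0.05 there were 3 higher and 0 lower. Over all hosts tested, 0.442% rose and 0.0% fell, and 7.58% were higher and 6.17% lower at an unadjusted p under 0.05; the same shares apply to each list of hosts below. Of the 7 log2 fold changes 5 were positive, against 3389 of 8379 over all hosts tested. Their median was 0.21, against -0.26 over all hosts.

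Among the J proteins of endosomes and vesicles, DNAJC13 (RME-8), which acts on early endosomes in retromer sorting, had 176 and 168 counts in the controls against 70 and 92 in the knockdowns. Per 100000 this was 37.3 and 30.2 against 24.8 and 23.6, and both knockdown libraries were lower. With TMM scaling the log2 fold change was -0.16 ± 0.32 (SE; adjusted p = 0.852 by edgeR). DNAJC13 had the most varied circles of the family, with 129 circles over 121531 nt of gene, of which 5 were seen in all 4 libraries. Of these, 36 contained at least 20 exons, and the longest chain had 45. The donor at 132538205, the most used by exon circles, gave 18, 42, 15 and 7 counts in the library order above. The most counted DNAJC13 circle was of intron type, chr3:132475086-132477788 with 2703 nt, and had 6 and 0 counts in the controls against 7 and 11 in the knockdowns. Its log2 fold change was 1.92 ± 1.30 (SE; adjusted p = 0.470 by edgeR).

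DNAJC6 (auxilin), which strips clathrin from vesicles with HSC70, had 40 and 26 counts in the controls against 7 and 9 in the knockdowns, or 8.47 and 4.67 against 2.48 and 2.30 per 100000. The groups did not overlap, with a log2 fold change of -1.11 ± 0.55 (SE; adjusted p = 0.413 by edgeR). Intron circles held 30 of its 82 counts, of which a single circle seen in control replicate 1 alone had 15. Of the 82 counts, 9 were in 3 circles wholly outside the RefSeq span of DNAJC6 or more than 1000 nt beyond it. Without these 3 circles control replicate 1 had 31 counts, and the other libraries were unchanged. All DNAJC6 exon circles shared the acceptor at 65364635, with 16 and 20 counts in the controls against 7 and 9 in the knockdowns. The log2 fold change of these exon circles alone was -0.35 ± 0.58 (SE). DNAJC5, a vesicle protein also known as cysteine string protein, had 7 and 7 counts in the controls against 2 and 1 in the knockdowns. All 3 tested hosts of this list had a negative log2 fold change, as did 4990 of all 8379 hosts tested. The median of the 3 was -1.11, and 0 passed by edgeR, also at an unadjusted p under 0.05.

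DNAJC9, a J protein that binds histones and brings HSP70 to them, had 16 and 21 counts in the controls against 2 and 3 in the knockdowns, or 3.39 and 3.77 against 0.707 and 0.768 per 100000. The groups did not overlap, with a log2 fold change of -1.93 ± 0.81 (SE; adjusted p = 0.347 by edgeR). The DNAJC9 levels in the knockdowns were no higher than a count of 0 allows there, 1.06 and 0.768 per 100000. Of its 42 counts, 16 lay in 6 circles wholly outside the RefSeq span of DNAJC9, although they named it, and 4 in 2 circles that ran more than 1000 nt beyond that span. The rest had 11 and 8 counts in the controls against 2 and 1 in the knockdowns. DNAJC21, which is needed for maturation of the large ribosomal subunit, had 17 and 17 counts in the controls against 7 and 9 in the knockdowns. The groups did not overlap per 100000, but with TMM scaling the log2 fold change was -0.16 ± 0.63 (SE). DNAJC2, a ribosome-associated J protein, had 3 and 0 counts in the controls against 6 and 10 in the knockdowns, and 16 of these 19 counts were in intron circles. Its log2 fold change was 3.19 ± 1.34 (SE; adjusted p = 0.347 by edgeR). In this list of nuclear and ribosomal J proteins 0 of 3 tested hosts passed by edgeR, with 1 higher and 1 lower at an unadjusted p under 0.05.

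Of the A and B classes, DNAJA2, a cytosolic J protein that delivers unfolded clients to HSC70, had 39 and 53 counts in the controls against 8 and 12 in the knockdowns. Per 100000 this was 8.26 and 9.52 against 2.83 and 3.07, a ratio of 0.332, and the groups did not overlap. The log2 fold change was -1.28 ± 0.48 (SE; adjusted p = 0.305 by edgeR). Its counts were spread over 33 circles, and the most counted one, chr16:46957007-46971572 on the minus strand, had 0 and 10 counts in the controls against 0 and 1 in the knockdowns. DNAJB4 had 10, 8, 12 and 9 counts in the library order above, and all of its 11 circles also named another gene, so that the host of these circles is uncertain. DNAJB6, known for holding back protein aggregation, had 20, 8, 4 and 6 counts, and the groups overlapped.

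Of the remaining tested hosts, DNAJC24, an enzyme cofactor of diphthamide synthesis, had 23 and 8 counts in the controls against 1 and 4 in the knockdowns, 25 of them in intron circles. DNAJC27 (6, 0, 5 and 3 counts) and DNAJC25 (4, 5, 2 and 2 counts) were close to the minimum of 10 counts. The 11 hosts below it had 3 to 9 counts each. DNAJB9 had a listed position with 0 counts in every library.

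Single circles were tested where they had at least 10 counts, which left 41 of the 458 DNAJ circles, from 11 hosts. By edgeR's quasi-likelihood test, 0 of the 41 passed an adjusted p of 0.05, as did 0.0% of all 21576 circles tested. At an unadjusted p under 0.05, 5 DNAJ circles were higher and 1 lower, against 9.42% and 4.0% of all circles. The knockdown libraries were above both controls for 11 DNAJ circles (23.2% of all) and below both for 8 (22.9% of all), and 22 overlapped. DESeq2 called 2 of the 41 (5.03% of all circles in either direction) and voom with group weights called 1 (1.48% of all). The median log2 fold change of the 41 circles was -0.28, against -0.39 over all circles. Circle use could be tested in 6 DNAJ genes, and 0 passed, against 4.11% of all 2335 genes. At an unadjusted p under 0.05, DNAJC3 and DNAJC1 were below the threshold, against 17.6% of all genes.

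**Figure D5:**
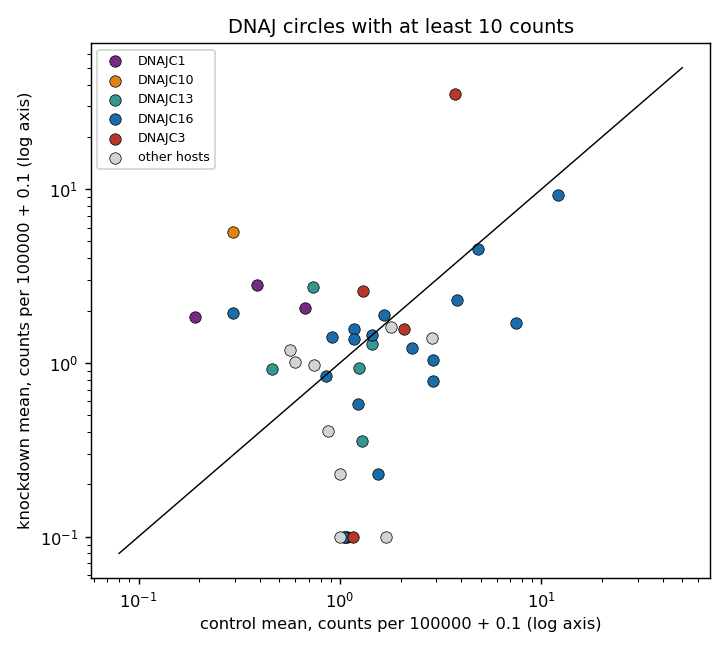
Mean level of the 41 DNAJ circles with at least 10 counts in control libraries (x axis) and knockdown libraries (y axis), as counts per 100000 circular counts plus 0.1 on log axes, coloured by host; the line marks equal levels. The leading circles of DNAJC3, DNAJC10 and DNAJC1 lie above the line, and the 340 nt circle of DNAJC16 lies below it.

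The HSP70 partners of DNAJ proteins and the other chaperone systems gave no call by edgeR's quasi-likelihood test, in lists that were likewise chosen with results known. Of 8 tested HSP70 and HSP110 hosts, 0 passed, with 1 higher and 1 lower at an unadjusted p under 0.05 and a median log2 fold change of -0.36. The most counted of them, HSPA9, the HSP70 of mitochondria, had 167 and 210 counts in the controls against 50 and 66 in the knockdowns, and its groups did not overlap per 100000. Of 3 nucleotide exchange factors, 0 passed, also at an unadjusted p under 0.05. Of 10 HSP90 hosts and co-chaperones and of 9 chaperonin hosts, 0 passed, each list with 1 higher and 1 lower at an unadjusted p under 0.05. Of 15 partners in ER-associated degradation, 0 passed, with 2 higher (UGGT2 and ERO1A) and 3 lower (EDEM1, PDIA3 and PDIA6) at an unadjusted p under 0.05. EDEM1, which helps to pick misfolded glycoproteins for degradation, had a log2 fold change of -1.58 ± 0.52 (SE; adjusted p = 0.257 by edgeR). The most counted of these was UGGT2, a folding sensor of the ER, with 108 and 204 counts in the controls against 319 and 489 in the knockdowns. Its log2 fold change was 2.28 ± 0.44 (SE; adjusted p = 0.0733 by edgeR).

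Of the J proteins without a DNAJ symbol, SEC63 of the ER translocon had 214 and 429 counts in the controls against 153 and 240 in the knockdowns, and its groups overlapped. HSCB, a mitochondrial J protein of iron-sulfur cluster assembly, had 11 and 3 counts in the controls against 0 and 0 in the knockdowns, with an adjusted p of 0.394 by edgeR, and it was the 1 tested host of the mitochondrial list.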

How the data were processed

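The 4 nanopore libraries of circular RNA were used. The authors deposited whole-number counts per back-splice position, called with CIRI-long per the file columns. The submitters' processing notes name GRCh38.p14 and DESeq2. The aligner, base caller and filters are not given in the sources used here. A second deposited table, named CPM, was not used: each of its columns sums to 100000. Counts of not antisense circles were summed over every gene a circle names. Hosts and circles were tested where all 4 libraries together held 10 or more counts, with edgeR 4.0.16 (R 4.3.3; glmQLFit with default settings, TMM, Benjamini-Hochberg over all features, threshold 0.05). SEs were derived from the F statistic. Circle use was tested with diffSpliceDGE on circles naming 1 gene. limma 3.58.1 (voom) and DESeq2 1.42.0 were alternatives, and the fit without the leading circle and circle use over every named gene were added after seeing the data. The scripts were tested on simulated data. Thinning took the mean of 10 draws. The members and lists were chosen with earlier results of these data known. Named were hosts with at least 40 counts, circles with at least 40 counts, the leading circle of hosts with at least 100 counts, and DNAJC10 circles with at least 10. Other hosts and circles named were chosen after their values were seen. Library totals and the precision they give stand in the text above.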

Additional observations from a re-analysis of the deposited data

Results flagged for a closer look

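Antisense circles at DNAJ genes lie outside the comparisons above, and they held 138 counts over the 4 libraries in 49 circles, above what a count of 0 allows. By library these were 40 and 44 counts in the controls against 18 and 36 in the knockdowns, which is 6.05% and 5.06% of the sense DNAJ counts in the controls against 4.04% and 5.69% in the knockdowns, so that the groups overlapped. DNAJC3 had the most, 22 counts in 7 circles with 1 and 10 in the controls against 6 and 5 in the knockdowns. DNAJC24 followed with 18 antisense counts, beside 36 sense counts. DNAJC10 had 2.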

How the results depend on the processing

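With 2 libraries per group, the counts of calls moved with the processing, and for each of these the cause was not tested. Against 1 DNAJ host called, edgeR called 0 with library-size scaling (0.692% of all hosts) and with the newer dispersion method (0.0%). It also called 0 without the most counted circle of each host (0.43%). It called 2 with at least 5 counts in 2 libraries, with at least 40 counts, with circles that name 1 gene, with the first gene named and with exon circles only (1.08% to 2.27% of all hosts), and 3 with no count filter. DESeq2 and voom with group weights called 2 hosts each. Of all hosts tested, DESeq2 called 2.2%, voom 4.77% and edgeR with no count filter 2.78%. Leaving out 1 library in turn gave 0 to 7 hosts, 0 to 10 circles and 0 to 4 genes in circle use. In these fits the spread comes from the pair that is left, and the lone library is assumed to vary like it. The calls were 0 in all 3 measures without either knockdown library, and with a control left out they came to 7 hosts, 10 circles and 4 genes without replicate 1 and 6, 8 and 3 without replicate 2; these settings called 19.8% and 33.4% of all hosts, 20% and 28.8% of all circles and 41.2% and 45.6% of all genes. Against 0 circles called, DESeq2 called 2, voom 1, no filter 2 (0.248% of all circles), at least 5 counts in 2 libraries 3 (12.0%), at least 40 counts 1 (12.5%) and exon circles only 2 (2.79%). Library-size scaling and the newer dispersion method also gave 0 circles (0.0% of all circles in each). In circle use, 0 genes passed with Simes adjustment (2.4% of all genes), the higher count minimum (17.6%) and every gene a circle names (3.79%). With a replicate block, 3 hosts, 3 circles and 3 circle-use genes were called, against 4.37%, 7.66% and 24.9% of all. The deviations of same-numbered libraries from their group means correlated at 0.0806 over 4944 circles, so the numbers were taken as names only.

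Of 280 alternatives for 20 single hosts and circles, 225 kept direction and side of the threshold, 42 newly passed it, 5 no longer did and 8 changed sign. DNAJB14 reversed with library-size scaling (-0.030). With 1 library left out, the log2 fold change ran from -0.80 to 0.47 for DNAJC16 as a host, from -0.50 to 1.71 for DNAJB14, from -0.78 to 0.33 for the leading DNAJC16 circle (0.00042 without knockdown replicate 1), from -1.23 to 0.68 for the leading DNAJB14 circle and from -4.94 to 2.39 for the leading DNAJA2 circle. Without control replicate 1 the difference in circles at equal depth turned from -10.55 to 6.15 and that in exon share from 6.21 to -3.10 percentage points. Circles with few counts limit what could be seen: 5 of 458 DNAJ circles had at least 40 counts.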
